A study of Mus musculus with 39 samples.

Results

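Sertoli-gated barcodes were studied in 2 droplet single-cell RNA libraries of mouse testis. They were chosen by the RNA they held: at least 3000 UMIs (unique molecular identifiers, each counting 1 captured RNA molecule), mitochondrial genes at up to 20% of UMIs, at least 3 of the 8 genes Sox9, Wt1, Cldn11, Rhox5, Rhox8, Amhr2, Aard and Defb19 with a UMI, and 5 Leydig-cell genes (Insl3, Cyp17a1, Cyp11a1, Star and Hsd3b1) under 0.5% of UMIs. This gave 803 of 11181 passing barcodes in the control library and 502 of 8444 in the cKO library, 1305 of 19625 in all. A barcode passed when it met the UMI and mitochondrial limits. The control was Kdm6a fl/y; Cre- and the cKO Kdm6a fl/y; Ddx4-Cre+, so both carried the floxed allele. Ddx4 is a germ-cell gene and drives Cre in germ cells, while Sertoli cells are somatic. Each library came from dissociated whole testis, and the sources used here give neither an age nor a number of animals. With 1 library per genotype no difference between genotypes could be tested. All intervals below are exact 95% intervals (Clopper-Pearson for shares, Poisson for levels, conditional binomial for ratios) and cover counting error only.

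Sertoli cells line the seminiferous tubule and enclose the germ cells as they mature. They seal the blood-testis barrier with tight junctions, feed germ cells with lactate and transferrin-bound iron, answer follicle-stimulating hormone and testosterone, and engulf dying germ cells and the residual bodies that spermatids shed. KDM6A (UTX) is an X-linked demethylase of lysine 27 of histone H3, whose trimethylated form, H3K27me3, marks silenced genes. KDM6B is another such enzyme, and UTY is the Y-linked relative of KDM6A.

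The libraries held 229882646 (control) and 172368722 (cKO) UMIs over all barcodes. Gated barcodes held 9920620 and 6007396 of these, with a median of 8088 UMIs per barcode in control and 8258 in cKO, and no single barcode gave more than 1.70% of them. No gated barcode sequence occurred in both libraries, and 30 passing ones did. Free RNA was taken from barcodes of 10 to 100 UMIs. Its germ-cell RNA, the summed share of 60 genes in 5 lists from spermatogonia to elongating spermatids, was 4.22% of UMIs in control and 3.83% in cKO.

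The gate held mostly barcodes with 3 to 5 markers, with much germ-cell and a little Sertoli RNA. It also held a small set, called the core here, with more Sertoli and less germ-cell RNA. At 3 to 5 markers the median share of germ-cell RNA was 9.97% in control and 11.9% in cKO. Other passing barcodes had 9.52% and 5.64%, so the 2 groups were close in control only. The core is the members with 6 to 8 markers, a limit set after the values were seen. Exactly 3 markers were found in 429 of the 803 control members (53.4%, 49.9 to 56.9) and in 261 of the 502 cKO members (52.0%, 47.5 to 56.4). The core was 97 control members (12.1%, 9.91 to 14.5) and 89 cKO members (17.7%, 14.5 to 21.4). Thus the core was 0.868% (0.704 to 1.06) of passing barcodes in control and 1.05% (0.847 to 1.30) in cKO, whereas all members were 7.18% (6.71 to 7.68) and 5.95% (5.45 to 6.47). The gate was lower and the core higher in cKO, and the intervals of the core overlapped.

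Sox9 and Wt1, which define the Sertoli cell, were rare in barcodes with few markers. In barcodes with exactly 3 markers, Defb19 had a UMI in 92.8% (control) and 93.9% (cKO) and Aard in 78.8% and 73.2%. Sox9, a transcription factor of testis formation, had one in 5.59% and 5.75% and Wt1, which keeps Sertoli identity, in 7.93% and 6.90%. In the core, Sox9 was detected in 59.8% and 66.3% and Wt1 in 82.5% and 71.9%. Barcodes with at least 0.5% Leydig-gene UMIs and under 3 Sertoli markers (the Leydig gate, 37 in control and 47 in cKO) had Sox9 in 2.70% and 0, and Wt1 in none. This gate itself limits the markers, Sox9 and Wt1 among them, so these low shares follow in part from its definition and give no background. For Wt1, 0 of 37 and 0 of 47, with 3 barcodes taken as the limit that a count of 0 allows, leave a share of up to 8.11% and 6.38% of barcodes with a UMI. Median depth was 9376 and 8600 UMIs at 3 markers, 8885 and 8245 in the core, and 7635 and 6138 in the Leydig gate. Defb19 is not particular to the gate: it had a UMI in all 37 control and 46 of 47 cKO Leydig-gate barcodes, and Amhr2 in 45.9% and 48.9%. The rule used these markers, so their levels describe the selection and are no finding.

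Germ-cell RNA was lower and Sertoli RNA higher with each further marker from 5 on, in both libraries. Sertoli RNA was measured with 60 genes outside the rule, in 5 lists of regulators, signals, junction genes, secreted proteins and supply genes, called the support lists. The supply list also holds genes, such as Ldha and Slc2a3, that were higher in other passing barcodes than in the core. At 3 markers the median germ share of UMIs was 10.3% in control and 13.2% in cKO, at 5 markers 7.86% and 5.76%, at 6 markers 3.53% and 2.97%, and at 8 markers 1.62% and 1.23%. The median support share went from 0.152% and 0.130% at 3 markers through 1.03% and 1.36% at 6 to 2.21% and 2.74% at 8. At 2 markers, just outside the rule, medians were 11.0% and 7.37% germ and 0.106% and 0.106% support. The germ median at 2 markers was thus close to that at 3 in control and lower than it in cKO, and the support medians were lower than at 3 in both. Barcodes with 0 markers had support shares of 0.0911% and 0.0865%. By summed UMIs most of this low level came from the supply list, so shares near it measure little Sertoli RNA. That list was at 1044 CPM (defined below) in control and 993 in cKO at 0 markers. It was at 945 and 925 at 3 markers and 1224 and 1324 in the core. Junction genes, next highest at 0 markers, were at 129 and 116. Secreted proteins rose from 82.9 and 84.6 at 0 markers to 461 and 383 at 3 and 10245 and 13599 in the core. The germ median was lower at each step from 2 to 4 markers in control and higher at each in cKO. Between 2 and 8 markers the libraries thus moved alike only from the step of 4 to 5 markers on. These lists do not set the core apart from all somatic cells, since the Leydig gate had median support shares of 2.09% and 2.34%, against 1.41% and 2.13% in the core.

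**Figure D1:**
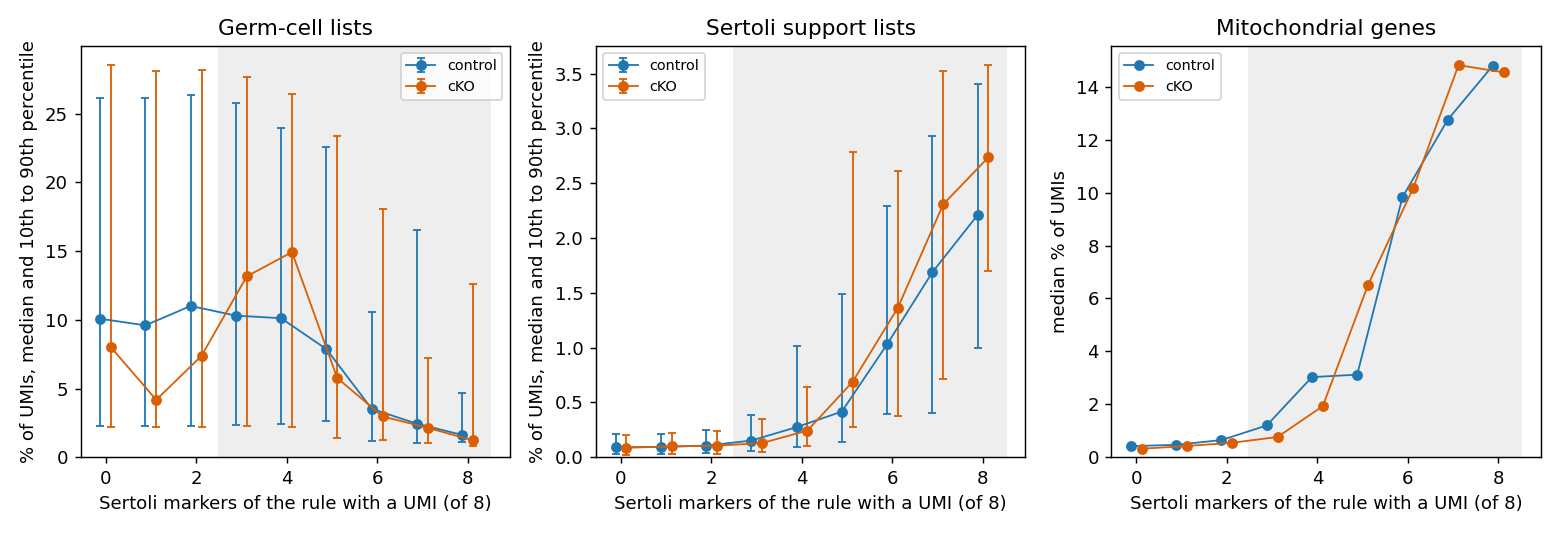
Germ-cell lists, Sertoli support lists and mitochondrial genes (y axes, % of UMIs) against the number of rule markers with a UMI (x axis), in the control and cKO libraries; points are medians over barcodes, bars the 10th to 90th percentile, and the shaded area is the gate. From 3 to 8 markers the germ median drops from 10.3% to 1.62% in control while the support median rises from 0.152% to 2.21%.

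Over all members, the germ share lay above that of free RNA in 491 of 803 control barcodes (61.1%, 57.7 to 64.5) and 289 of 502 cKO barcodes (57.6%, 53.1 to 61.9). The other passing barcodes gave 58.6% and 53.1%, so the members as a whole stood close to the rest of the testis on this measure. The core gave 24.7% and 29.2%, and the Leydig gate, another somatic class, 10.8% and 4.26%. The late-spermatid genes Prm1, Prm2, Tnp1 and Tnp2 carried much of the germ share of free RNA. Without them free RNA was 1.29% and 1.10% germ. Above it lay 90.4% (88.2 to 92.4) and 86.7% (83.4 to 89.5) of members. Other passing barcodes gave 96.9% (96.6 to 97.2) and 96.6% (96.2 to 97.0), so members stood below them on this second measure. The core gave 49.5% (39.2 to 59.8) and 46.1% (35.4 to 57.0), and the Leydig gate 10.8% and 6.38%. With all genes the intervals of the core (16.5 to 34.5 in control, 20.1 to 39.8 in cKO) and the Leydig gate (3.03 to 25.4, 0.520 to 14.5) overlapped in control and not in cKO. On either measure the core held germ RNA above free RNA less often than the barcodes with 3 to 5 markers (66.1% and 63.7% with all genes).

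Elongating-spermatid genes, which encode the protamines, transition proteins and sperm tail, made up at least 10% of UMIs in 340 of 803 control members and 226 of 502 cKO members (42.3% and 45.0%). Other passing barcodes gave 48.6% and 45.9%, so members did not exceed them. In the core this held for 11 of 97 and 14 of 89 barcodes. These core barcodes still had median support shares of 0.824% and 1.22%, which is above the 0.0574% and 0.0521% of other passing barcodes with as much spermatid RNA. In other passing barcodes as a whole, supply genes made up most of the support UMIs. Core barcodes with under 2% of spermatid UMIs had 2.30% and 2.59%. Barcodes that carry both kinds of RNA at high levels thus exist in both libraries, and whether they held more than 1 cell was not tested. Conversely, 132 of 706 control (18.7%) and 41 of 413 cKO (9.93%) barcodes with 3 to 5 markers had a support share at or above the 10th percentile of the core (0.486% and 0.643%), against 0.126% and 0.102% of other passing barcodes outside the Leydig limit.

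**Figure D2:**
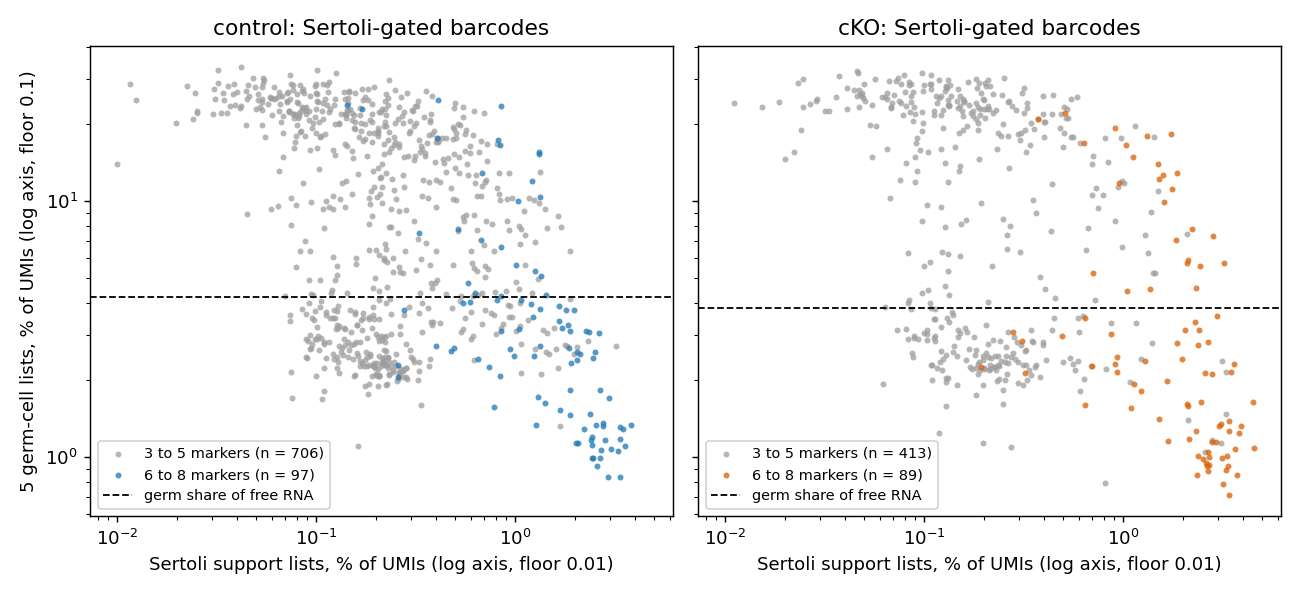
Share of UMIs in the 5 germ-cell lists (y, log axis) against the share in the 5 Sertoli support lists (x, log axis) for every gated barcode, control left and cKO right; each point is 1 barcode, coloured for 6 to 8 markers and grey for 3 to 5, and the dashed line is the germ share of free RNA. The core lies to the lower right, with 11 control and 14 cKO core barcodes at 10% or more of elongating-spermatid RNA.

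Mitochondrial RNA moved with the number of markers, and median depth did not follow it, at 4750 to 10540 UMIs in control and 6120 to 8600 in cKO over 3 to 8 markers. The number of markers seen in a barcode still depended on its depth. Thinned to 3000 UMIs, 47.1% of control and 46.4% of cKO members still showed 3 markers, against 92.8% and 95.5% of the core and 25.9% and 21.8% of barcodes with exactly 3. Mitochondrial genes had a median of 12.6% and 13.4% of UMIs in the core, 1.75% and 1.32% at 3 to 5 markers, and 0.471% and 0.381% in other passing barcodes. The Leydig gate had 8.51% and 9.52%, so a high share was not particular to the core. The limit of 20% itself removed Sertoli-marked barcodes: of 71 control and 76 cKO barcodes over it, 41 and 59 had at least 3 markers, and 8 and 24 had at least 6. At the Leydig limit, 59 control and 42 cKO barcodes with at least 3 markers were excluded. Their median support shares were 2.14% and 1.92%, and Clu and Ptgds of these lists were high in the Leydig gate as well.

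The genes that led the gate, by the lower of the 2 libraries' log2 ratios over other passing barcodes, were in order Cst12, Cst9, Tsx, Basp1, Gm9112, Wfdc10, 1700011M02Rik, Gm3880, Etd, Defb36, 1700018G05Rik, 4933402E13Rik, Tuba1a, Qpct, Clu, Gm2044, Gatm, Tmem184a, Cstdc1 and Defb45. The gate chose the barcodes, so this order is a description. Over all 12391 genes with at least 50 UMIs in the gate, 8.16% in control and 9.47% in cKO were past a log2 ratio of 1. RefSeq (GRCm38.p6, matched by symbol) held 18 of the 20, of which 7 lie on chromosome 2 and 6 on X, beside 7.65% and 3.06% of all such genes. Cst12, Cst9 and Cstdc1 lie in 1 cluster on chromosome 2, and Defb36 and Defb45 lie near the rule's Defb19 on the same chromosome.

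The upstream 250 bases of 4 such genes and of Rhox5, a homeobox gene of the rule, are shown because GATA and SOX factors (Gata4, Sox9, Sox8) are among the regulators of Sertoli genes described here. They are RefSeq sequences of GRCm38.p6, written 5′ to 3′ on the gene's strand. Capitals mark matches to either of 2 words, searched on both strands. For GATA factors the word searched was AGATAA, and for SOX factors AACAAT. Each is only 1 form of the motif these factors bind, and other forms were not searched.
Rhox5, chrX:37754358-37754607, plus strand: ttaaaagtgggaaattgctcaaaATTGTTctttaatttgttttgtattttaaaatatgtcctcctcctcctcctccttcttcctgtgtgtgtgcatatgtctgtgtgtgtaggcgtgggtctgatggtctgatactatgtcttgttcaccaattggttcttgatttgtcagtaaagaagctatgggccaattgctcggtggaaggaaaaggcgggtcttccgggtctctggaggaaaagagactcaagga
Defb36, chr2:152604077-152604326, plus strand: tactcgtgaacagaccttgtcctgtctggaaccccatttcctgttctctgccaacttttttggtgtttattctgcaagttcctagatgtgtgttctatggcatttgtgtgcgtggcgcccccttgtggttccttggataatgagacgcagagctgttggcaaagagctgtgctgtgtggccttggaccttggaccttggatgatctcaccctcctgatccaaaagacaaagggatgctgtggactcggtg
Cstdc1, chr2:148781759-148782008, plus strand: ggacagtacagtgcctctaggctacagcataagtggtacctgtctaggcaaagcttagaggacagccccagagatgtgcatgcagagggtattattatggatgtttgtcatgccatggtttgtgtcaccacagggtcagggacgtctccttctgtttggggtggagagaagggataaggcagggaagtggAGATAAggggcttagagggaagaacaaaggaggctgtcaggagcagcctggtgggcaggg
Cst12, chr2:148789115-148789364, plus strand: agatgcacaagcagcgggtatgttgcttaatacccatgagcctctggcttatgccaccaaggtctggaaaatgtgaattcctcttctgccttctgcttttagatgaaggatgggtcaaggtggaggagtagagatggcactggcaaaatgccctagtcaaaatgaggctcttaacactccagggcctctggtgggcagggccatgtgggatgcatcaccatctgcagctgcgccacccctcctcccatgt
Cst9, chr2:148834897-148835146, plus strand: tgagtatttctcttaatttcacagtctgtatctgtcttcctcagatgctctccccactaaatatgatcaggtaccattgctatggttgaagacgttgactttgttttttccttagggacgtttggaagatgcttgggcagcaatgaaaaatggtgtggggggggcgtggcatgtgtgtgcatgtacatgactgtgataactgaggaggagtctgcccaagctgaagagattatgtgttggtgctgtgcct
Of these exact words, Rhox5 held 1 SOX word, Cstdc1 1 GATA word, and Defb36, Cst12 and Cst9 none. Over the 20 upstream windows of 18 leading or rule genes, 2 (10.0%) held the GATA word and 2 (10.0%) the SOX word. All 32851 windows gave 9.99% and 9.42%, so the shares of the members were near those of all promoters. A match describes letters and is no binding site, and the lack of a match does not exclude another form of the motif.

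Each of the 20 leading genes stood higher in the core than at 3 to 5 markers in both libraries by a log2 ratio over 1, with a median of 2.78 in control and 3.33 in cKO. The background for this ratio was 21% of the 12391 genes in control and 22.9% in cKO. The 20 genes were ranked over members that include the core, so their excess there follows in part from that choice. It is no separate finding. For Cst12 the core held 1697 of 3191 member UMIs in control and 1903 of 2839 in cKO. Levels are given in CPM, UMIs per 1000000 of all UMIs summed over a group of barcodes. Cst9, a secreted cystatin of Sertoli cells, was at 1695 CPM in control and 2346 in cKO core barcodes, 212 and 222 at 3 to 5 markers, 17.9 and 16.3 in other passing barcodes, and 35.6 and 33.3 in free RNA. Cst12, of the same cluster, was at 1544 and 2079, then 169 and 184, 12.4 and 11.9, and 23.7 and 33.8. Tsx, a testis-specific X-linked gene, was at 552 and 594 in the core and 94.9 and 69.3 at 3 to 5 markers. The levels were ordered core, 3 to 5 markers, free RNA and other passing for these genes in both libraries. Clu, the secreted chaperone clusterin, was at 3259 and 4038 CPM in the core but also at 1490 and 1871 in the Leydig gate. Gm2044 was at 183 and 237 in the core, 27.5 and 40.5 in the Leydig gate and 3.06 and 6.48 at 3 to 5 markers. Of the 20 genes, 6 had no UMI in the Leydig gate of control, and 6 had none in that of cKO.

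**Figure D3:**
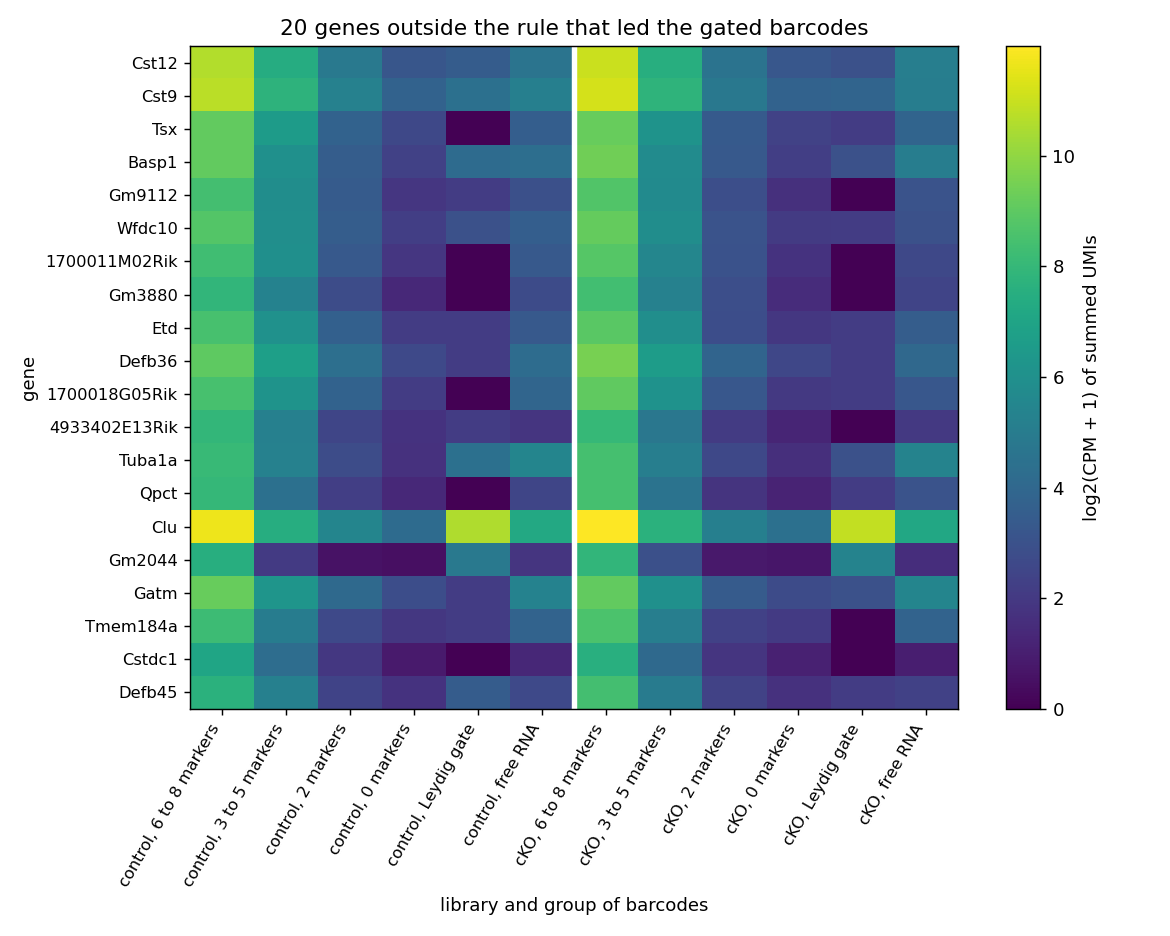
Heat map of log2(CPM + 1) of summed UMIs for the 20 leading genes outside the rule (rows) in 6 groups of barcodes of each library (columns), control left of the white line and cKO right. All 20 rows are brightest in barcodes with 6 to 8 markers, and Clu is also bright in the Leydig gate.

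The Sertoli RNA of barcodes with 3 to 5 markers differed in makeup from free RNA and from the core. Of the UMIs of Cst9, Cst12, Clu, Ctsl, Tsx and Inha, Cst9 took 25.04% in control and 24.2% in cKO at 3 to 5 markers, 17.4% and 18.2% in the core, and 10.3% and 9.13% in free RNA. Clu took 20.5% and 21.5%, then 33.5% and 31.3%, and then 43.2% and 39.9%. In the Leydig gate Clu took 70.9% and 73.2% and Cst9 0.980% and 0.528%. Cst9 and Clu kept this order in both libraries. Inha did not, at 3.23% and 4.47% at 3 to 5 markers, 3.79% and 4.38% in the core, and 2.38% and 2.32% in free RNA.

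Transcription factors of Sertoli identity were low in number of UMIs and higher in the core. Here and for the lists below, the 50 UMIs needed for a ratio were counted over all members, the core included. At 3 to 5 markers alone, 4 of 8 regulators, 4 of 12 signal, 8 of 12 junction, 9 of 11 secreted and 9 of 17 supply genes had as many. Markers also defined the core, so the counts of genes past a ratio describe these groups and are no test. All 8 regulators of the list (Gata4, Gata1, Nr5a1, Nr0b1, Dmrt1, Sox8 and Etv5 among them) had a log2 ratio above 1 in the core over 3 to 5 markers in both libraries, with medians of 2.89 and 3.16. Gata4, a zinc-finger activator of Sertoli genes, was at 33.7 CPM in control and 27.3 in cKO core barcodes and 1.81 and 3.34 at 3 to 5 markers. Sox8, which acts beside Sox9, was at 37.3 and 32.8 against 2.83 and 2.55. Nr0b1 (DAX1) was at 67.3 and 80.9 and Dmrt1 at 24.6 and 30.6. Nr5a1, shared with steroidogenic cells, was at 34.6 and 37.2 in the core and at 148 and 152 in the Leydig gate.

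Signals and receptors split into those present and those hardly detected. In the core Inha, the alpha subunit of inhibin, was at 368 and 565 CPM, Kitl, the ligand for KIT on spermatogonia, at 95.5 and 66.7, Inhbb at 77.3 and 61.2, and Dhh, which signals to Leydig and myoid cells, at 41.8 and 64.5. Against this, Fshr, the receptor for follicle-stimulating hormone, had 3 and 6 UMIs, Gdnf, which maintains spermatogonial stem cells, 4 and 0, Amh 1 and 0, and Inhba none. Zero UMIs in the core allow up to 2.73 CPM in control and 3.28 in cKO. Amh and Krt18, both genes of the immature Sertoli cell, were thus near or at 0 (Krt18 had no UMI in either core), while free RNA had Krt18 at 39.2 and 44.2 CPM. Of the 12 signal genes, 7 had the 50 UMIs needed for a ratio, and 6 of these passed a log2 ratio of 1 in the core over 3 to 5 markers in each library.

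Among 12 junction and cytoskeletal genes, 10 had enough UMIs, and all 10 passed that ratio in each library. Espn, an actin bundler of the ectoplasmic specialization, was at 534 CPM in control and 717 in cKO core barcodes and 41.4 and 52.2 at 3 to 5 markers. Vim, the intermediate filament vimentin, was at 325 and 424, and Gja1, a gap-junction connexin, at 106 and 103. The tight-junction gene Ocln was at 24.6 and 25.1, Cldn3 at 35.5 and 64.5 and Tjp1 at 104 and 72.1, while Cldn5 had 1 and 0 UMIs. Tjp1 was also at 30.5 and 22.8 in other passing barcodes.

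All 11 secreted-protein and other differentiation genes passed it in both libraries, with medians of 3.30 and 3.65. Ctsl, the protease cathepsin L, was at 2314 and 3289 CPM in the core and 170 and 205 at 3 to 5 markers. Ptgds, prostaglandin D synthase, was at 488 and 720 in the core but at 11398 and 18923 in the Leydig gate. Trf, the iron carrier transferrin, was at 50.0 and 74.3 CPM in the core and 270 and 289 in free RNA. Serpina5, a protease inhibitor, was at 74.6 and 155 in the core and 213 and 250 in the Leydig gate.

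Of 17 supply genes 13 had enough UMIs, and 9 of the 13 passed in each library. The engulfment receptors Axl (46.4 and 64.5 CPM in the core), Tyro3 (51.8 and 53.5) and Mertk (12.7 and 15.3) and their ligand Gas6 (145 and 200) were below 20 CPM at 3 to 5 markers. Slc2a3, a glucose transporter, and Ldha, a lactate dehydrogenase subunit, were lower in the core (176 and 136, and 407 and 450) than in other passing barcodes (298 and 255, and 623 and 673). Aldh1a2, a retinaldehyde dehydrogenase of late germ cells, was at 64.6 and 32.8 in the core and 61.7 and 60.1 in other passing barcodes. Aldh1a1, its Sertoli and Leydig counterpart, was at 122 and 165 in the core and 2867 and 2756 in the Leydig gate.

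Of the families that hold rule genes, few members were found. Of 34 Rhox genes, X-linked homeobox genes of the reproductive tract, Rhox5 (144 and 250 CPM) and Rhox8 (527 and 614) were the only ones with more than 5 UMIs in either core. Of 42 Defb genes, which encode beta-defensins, Defb19 (3573 and 5411), Defb36 (513 and 724) and Defb45 (201 and 337) were above 100 CPM there. Defb33 went the other way, with 91.0 and 67.7 CPM in the core and 147 and 143 in other passing barcodes.

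Many markers of other somatic cells were at or near 0 in the core, while 1 or 2 genes of the macrophage, red-cell, Leydig and myoid lists were not. Of 9 macrophage genes, C1qa, C1qc, Csf1r, Adgre1 and Cd68 had no UMI in either core, although free RNA held the list at 1159 and 1425 CPM against 115 and 77.6 in the core and 24.9 and 20.1 in other passing barcodes. Mrc1, the mannose receptor, was the exception at 106 and 71.0 CPM, with 3.63 and 4.32 at 3 to 5 markers and none in the Leydig gate. Alas2, the erythroid enzyme of heme synthesis, was at 63.7 and 88.5 CPM while the 4 globin genes had 1 UMI together in control and 0 in cKO. The 8 endothelial genes summed to 25.5 and 6.56 CPM in the core and the 7 stromal genes to 5.46 and 6.56, against 145 and 189, and 114 and 124, in free RNA. Of the 5 Leydig genes of the rule, which the gate limits, 10.9 and 13.1 CPM were left in the core. A further Leydig list of 10 genes, 1 of them in the rule, summed to 93.7 and 132 CPM in the core, 180 and 199 in other passing barcodes and 871 and 982 in free RNA. Fdx1, an electron carrier of steroid synthesis, made up 86.4 and 118 CPM of the core sums, while Hsd17b3, Lhcgr, Cyp2a5, Nr2f2 and Hsd3b6 had 0 UMIs in both cores. The 7 peritubular myoid genes summed to 140 and 150 CPM in the core, near the 160 and 161 of other passing barcodes and above the 103 and 83.9 of free RNA. Of these, Actg2, a smooth-muscle actin, gave 77.3 and 75.4 CPM and Mylk, a myosin kinase, 59.1 and 66.7, while Myh11 and Des had no UMI in either core. The part of such cells in the results was not tested. The 12 early-spermatocyte genes summed to 1692 and 1187 CPM in the core and 2367 and 2093 at 3 to 5 markers.

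Between the libraries, most genes of the gated barcodes stood at similar levels. Of the 12391 genes, 29 (0.234%) were above a log2 ratio of 1 in cKO over control and 53 (0.428%) below -1, and the median of all was -0.01. In other passing barcodes 3 (0.016%) and 19 (0.101%) of 18791 genes did so. In the core, at 6473 genes, 31 (0.479%) were above 1 and 106 (1.64%) below -1. These counts rest on few UMIs for many genes. Those of all members ranged from 5 to 84 higher and 10 to 112 lower with other pseudocounts, filters or gates. The UMI filter and the pseudocount were the same in each group, while summed UMIs were highest in other passing barcodes and lowest in the core. A gene just past the filter has a lower CPM where more UMIs were summed, so the pseudocount shrinks its ratio more there. The shares past a log2 ratio of 1 are thus not a like comparison between these groups.

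The lowest ratios belonged to genes that were also lower outside the gate. All 10 named lower genes (Npat, Clasrp, Gm13941, Slc13a5, Gopc, Hist1h1a, Hist1h1b, Gm15262, Zfp59 and mt-Nd6) were lower in cKO among other passing barcodes too, 5 of them past a log2 ratio of 1. Clasrp, a regulator of splicing, had 1094 UMIs (110 CPM) in control members and 217 (36.1) in cKO, a log2 ratio of -1.61 (-1.83 to -1.40). It was at 130 and 40.2 CPM in other passing barcodes. The mitochondrial gene mt-Nd6 was at 327 and 118 CPM in the core. Npat, an activator of histone genes, was at 31.8 CPM in control and 3.28 in cKO core barcodes, on 35 and 3 UMIs, and its log2 ratio in other passing barcodes was -0.73 (-0.85 to -0.62). The 10 highest ratios were those of Acta2, Cyp26b1, Gm37350, Map4k1, Kazald1, Gm32846, Gm35533, Gm3149, Gm21943 and Gm43356, from 2.36 down to 1.26. Among other passing barcodes 9 of these 10, all but Kazald1, had the same sign, and 1 was past a log2 ratio of 1, Map4k1, at 33.2 and 92.3 CPM. The intervals there held 0 for Cyp26b1, at 0.31 (-0.15 to 0.78), and for Gm35533, at 0.11 (-0.31 to 0.53). The median log2 ratio (CPM + 1) of all 18791 genes there was -0.025.

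Acta2, the contractile actin of peritubular myoid cells, had the highest ratio, and 1 barcode held most of its UMIs. It had 19 UMIs in 19 control members and 84 UMIs in 20 cKO members, log2 ratio (CPM + 1) 2.36. A single cKO barcode with 4 markers and 8845 UMIs held 64 of the 84, as well as 31 of 35 UMIs of Myh11, 24 of Tagln and 17 of 39 UMIs of Cyp26b1. Without it the log2 ratio was 0.57 for Acta2 and 1.01 for Cyp26b1, the enzyme that degrades retinoic acid. In the core, Acta2 had 3 and 5 UMIs and Myh11 none.

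Gm37350, Gm35533 and Kazald1 were higher in cKO in the core. Gm37350 was at 134 CPM (147 UMIs in 45 barcodes) in the control core and 404 (370 UMIs in 56) in the cKO core, a log2 ratio of 1.60. Gm35533 was at 142 and 345 CPM, a ratio of 1.28, and in other passing barcodes both genes were below 3 CPM. Gm37350 was not particular to the core, with 141 and 186 CPM in the Leydig gate. At 3 to 5 markers the ratio without a pseudocount was 0.35 (-0.17 to 0.87) for Gm37350, 0.69 (0.24 to 1.14) for Gm35533 and 1.41 (0.41 to 2.45) for Kazald1, the last on 15 and 23 UMIs. In cKO, 1 such barcode held 18 of 56 UMIs of Gm37350, and 1 held 20 of 82 of Gm35533. In control the most in 1 barcode was 8 of 76 and 9 of 88. Ratios without these barcodes were not computed. Kazald1, a secreted protein of the insulin-like growth factor binding protein family, had 5 and 24 UMIs in the core (4.55 and 26.2 CPM) and was lower in cKO in other passing barcodes (1.52 and 1.05 CPM). They were picked from the 10 highest after their values were seen, and with 1 library per genotype the difference cannot be told apart from one between these 2 preparations.

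Sertoli genes as lists had medians slightly above 0 in cKO over control in all members and in the core, and on both sides of 0 at 3 to 5 markers. In all members, the median log2 ratio of cKO over control was 0.15 for regulators (8 genes at 50 UMIs), 0.20 for signals (7), 0.29 for junctions (10), 0.55 for secreted proteins (11) and 0.18 for supply genes (13). In the core these were 0.10 (7), 0.17 (5), 0.08 (10), 0.43 (11) and 0.09 (10), and the 20 leading genes had 0.40. At 3 to 5 markers, 14 of the 20 leading genes were below 0, with a median of -0.14, and 17 of the 34 support genes with 50 UMIs there were below 0, with a median of -0.00036, beside -0.05 over all 11549 genes. By list the medians there were -0.41 for regulators (4 genes), 0.14 for signals (4), -0.00036 for junctions (8), -0.22 for supply genes (9) and 0.11 for secreted proteins (9). Over all support genes the median was 0.31 in members, 0.17 with at least 6 markers, 0.11 with at least 2, and 0.03 with mitochondrial RNA limited to 10%. The share of the core among members was higher in cKO, as was the median support share within the core (2.13% against 1.41%), and their part in these ratios was not tested.

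Among single genes of the core, 50 rule and support genes described here had at least 50 UMIs over both libraries. Leaving out the 8 rule genes, which chose the barcodes, the interval of the ratio lay above 0 for 14 of 42 and below 0 for 4. Over all 6473 core genes with at least 50 UMIs it lay above 0 for 8.81% and below 0 for 11.6%, and intervals were not adjusted for the number of genes. The support genes were not matched to these by UMIs. Intervals narrow at higher counts, so the shares are not a like comparison. Serpina5 stood at a log2 ratio of 1.06 (0.65 to 1.47), from 82 UMIs in the control core and 142 in that of cKO. Inha stood at 0.62 (0.43 to 0.81), Dhh at 0.62 (0.04 to 1.21) and Cldn3 at 0.86 (0.25 to 1.48). Lower in cKO were Kitl, at -0.52 (-0.999 to -0.05), Tjp1, at -0.52 (-0.98 to -0.07), Slc2a3, at -0.38 (-0.72 to -0.05), and Aldh1a2, at -0.98 (-1.65 to -0.34). Of these, Slc2a3 and Aldh1a2 were as high or higher in other passing barcodes.

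**Figure D4:**
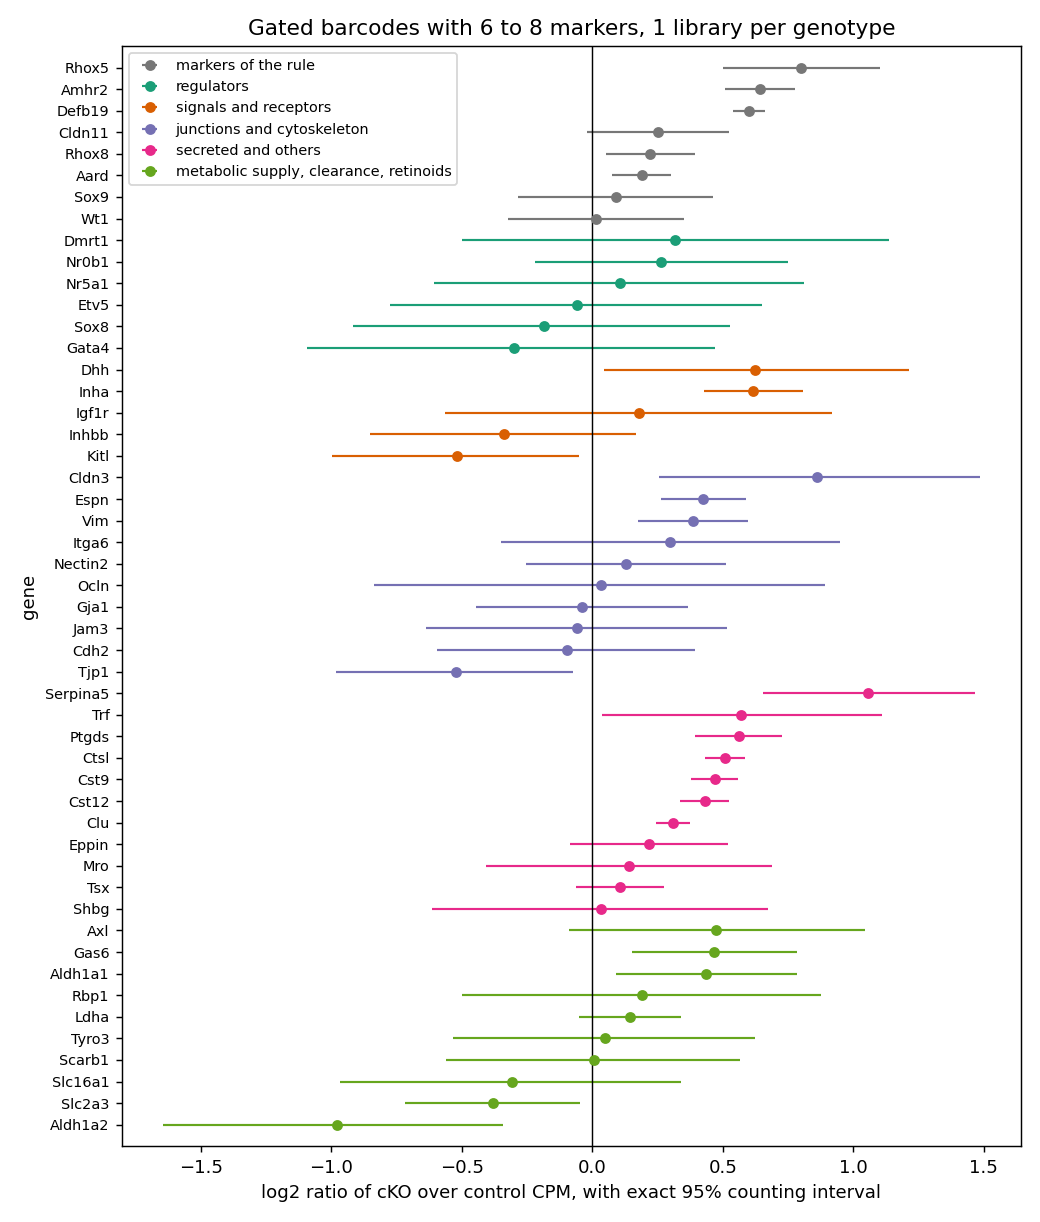
Log2 ratio of cKO over control CPM (x axis) with its exact 95% counting interval for the 50 rule and support genes described here (y axis) with at least 50 UMIs in core barcodes, 1 library per genotype, coloured by list. Among the 42 genes outside the rule, intervals lie above 0 for 14, with Serpina5 the highest ratio, and below 0 for Kitl, Tjp1, Slc2a3 and Aldh1a2.

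At 3 to 5 markers the ratios of Rhox8, Aard and Tsx had another sign than in the core, where the interval of Tsx held 0. Rhox8 was at 0.22 (0.05 to 0.39) in the core and -0.33 (-0.50 to -0.17) at 3 to 5 markers, Aard at 0.19 (0.08 to 0.30) and -0.32 (-0.44 to -0.21), and Tsx at 0.11 (-0.06 to 0.28) and -0.45 (-0.64 to -0.27). Amhr2, the receptor for anti-Müllerian hormone, was higher in cKO in both, at 0.64 (0.51 to 0.78) and 0.83 (0.64 to 1.01). Inha was too, at 0.62 and 0.59 (0.31 to 0.86). The rule selects on Rhox8, Aard and Amhr2, so their ratios describe its members.

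Kdm6a was lower in cKO at 3 to 5 markers and in other passing barcodes, while in the core, the Leydig gate and free RNA its level in cKO was not below that in control. The core had 14 UMIs in 10 barcodes in control (12.7 CPM, 6.96 to 21.4) and 14 UMIs in 13 barcodes in cKO (15.3 CPM, 8.36 to 25.7), a log2 ratio of 0.26 (-0.91 to 1.44). At 3 to 5 markers there were 21 and 4 UMIs (2.38 and 0.786 CPM), a ratio of -1.60 (-3.60 to -0.03). Other passing barcodes had 265 and 45 UMIs (2.16 and 0.485 CPM), a ratio of -2.15 (-2.64 to -1.69), and the Leydig gate 4 and 5 UMIs (13.7 and 16.9 CPM). The lower bound in the core, -0.91, lay above the upper bound in other passing barcodes, -1.69, and within the interval at 3 to 5 markers. Free RNA held 10.8 and 14.4 CPM, close to the level of the core. Over all members the levels were 3.53 and 3.00 CPM, and the log2 ratio (CPM + 1) was -0.18. Other gates moved this ratio from -1.05 (mitochondrial limit 10%, which excludes most of the core) to 0.25 (at least 6 markers). The sources used here do not give the deleted exons, and 3′ tags outside them would not register the deletion. Of the related enzymes, Kdm6b had 43 and 23 UMIs in the core (39.1 and 25.1 CPM), a ratio of -0.64 (-1.44 to 0.12), and Uty 6 and 11 UMIs.

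**Figure D5:**
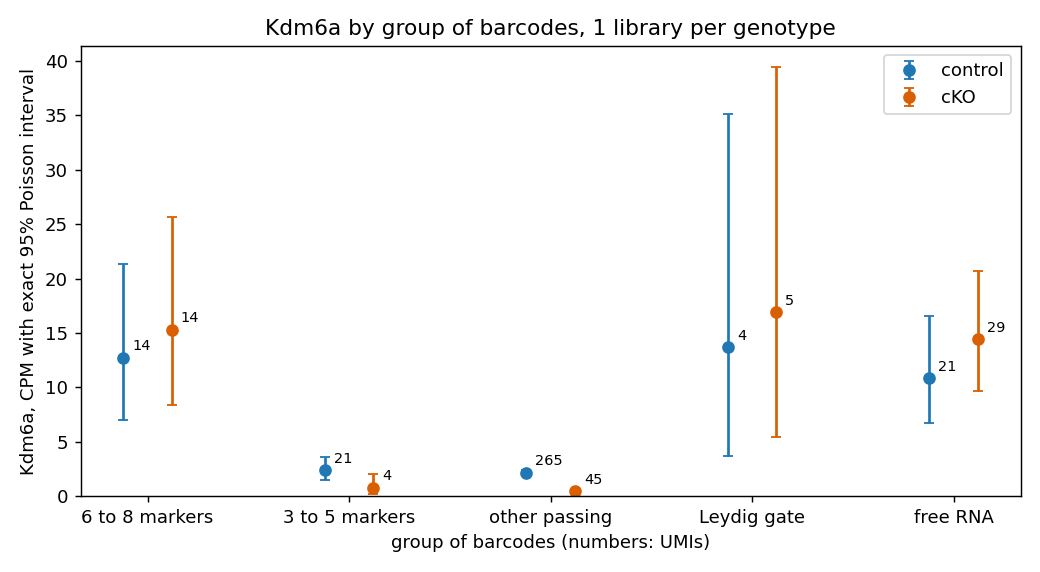
Kdm6a level in CPM with exact 95% Poisson intervals (y axis) in 5 groups of barcodes (x axis), control and cKO libraries, with the number of UMIs beside each point. Core barcodes stand at 12.7 and 15.3 CPM, and other passing barcodes at 2.16 and 0.485 CPM.

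The promoters of these genes were set against H3K27me3 (CUT&Tag) and open chromatin (ATAC-seq) of sorted cKIT+ spermatogonia, germ cells from 2 control and 3 cKO libraries per assay. This describes another cell type than the Sertoli cell. Of 20267 genes with a RefSeq promoter window (250 bases before to 50 after the start), 4.12% were overlapped by H3K27me3 in all 5 libraries and 29.7% by an ATAC peak in all 5. Of 44 support genes with a window, 8 (18.2%) were overlapped by H3K27me3 in all 5: Sox8, Dhh, Inha, Ocln, Cldn5, Cldn3, Krt18 and Stra6. An ATAC peak in all 5 was found at 10 (22.7%), among them Vim and Ctsl. Cldn11, the barrier claudin of the rule, also carried H3K27me3 in all 5. Of 15 leading genes with a window, none was overlapped by H3K27me3 in all 5, 12 (80.0%) were in none, near the 83.4% of all genes with a window, and 10 (66.7%) had no ATAC peak in any library, against 44.9% of all. Cst9, Cst12, Tsx and Defb45 were overlapped by neither.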

How the data were processed

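Droplet 3′ single-cell RNA libraries of whole testis, 1 control and 1 cKO, were deposited as matrices of UMI counts for all barcodes, and Cell Ranger is named per the file headers. No cells had been selected in them, and doublets were not removed, since mixtures are among the members. The peak lists of cKIT+ spermatogonia hold a fold (a ratio over background) for ATAC-seq and a signal for H3K27me3 as deposited by the authors. MACS2, SEACR and the build mm10 come per the submitters' processing notes, and only the overlap of peaks with promoters was used. Peaks were called per library, and their depth is unknown.

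UMIs were summed over groups of barcodes and scaled to 1000000 (CPM). Ratios between groups are log2((CPM + 1)/(CPM + 1)) for genes with at least 50 UMIs in both libraries together. Where an interval is given, the ratio is of CPM without a pseudocount. Genes were named by rule: the 20 leading genes, the 10 highest and 10 lowest ratios of cKO over control, genes of the lists, and the Rhox and Defb families. Others named are said to have been picked later. The members and lists were chosen with earlier results of these data known, and the split at 6 markers, the bins of spermatid RNA, the 6-gene makeup, the promoter overlaps and the motifs were chosen after seeing the data. Barcodes were thinned to 3000 UMIs where depth mattered. The ratio step was tested on simulated data. Promoters overlapped a peak by at least 1 base. Tools were Python 3.11.15, numpy 2.4.6, scipy 1.17.1, pandas 2.3.3, matplotlib 3.10.9 and bedtools 2.31.1. Alternatives were other gates, pseudocounts, filters, denominators and scalings. Bulk RNA libraries were not used here. Of the regulators, 1 gene counts in the list but its values are not reported here.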

Additional observations from a re-analysis of the deposited data

How the results depend on the processing

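The number of gated barcodes went from 803 in control and 502 in cKO to 2009 and 1352 with at least 2 markers, 374 and 241 with at least 4, 378 and 233 with markers counted after thinning, and 97 and 89 with at least 6 (added after seeing the data). It stayed within 1.5 times under the other UMI, mitochondrial and Leydig limits. The core was not as stable: the mitochondrial limit of 10% left 691 and 414 members but excluded most of the core, whose median mitochondrial share was 12.6% and 13.4%. The share of members above the free-RNA germ level, 61.1% in control and 57.6% in cKO, moved in control to 66.2% (minimum 2000 UMIs), 57.3% (minimum 5000 UMIs), 55.6% (at least 4 markers), 67.7% (mitochondrial limit 10%), 24.7% (at least 6 markers), 90.4% (without Prm1, Prm2, Tnp1 and Tnp2) and 53.4% (free RNA from 1 to 50 UMIs). In cKO it moved to 49.8% (at least 4 markers), 63.8% (10%), 29.2% (at least 6 markers) and 86.7% (without these 4 genes). The 29 genes past a log2 ratio of 1 that were higher in cKO became 10 (at least 2 markers), 47 (at least 4), 5 and 54 (pseudocounts of 5 and 0.1 CPM), 84 (no low-count filter), 7 (200 UMIs) and 47 (mean over barcodes). The 53 lower ones became 29 (at least 2 markers), 92 (mitochondrial limit 10%), 92 (thinning), 106 (at least 6 markers), 10 and 112 (the pseudocounts), 106 (no filter), 20 (200 UMIs) and 93 (mean over barcodes). The median ratio of the support lists, 0.31, became 0.11 with at least 2 markers and 0.034 with the mitochondrial limit at 10%. The causes of these moves were not tested. The Kdm6a ratio stayed within its counting interval in 10 of 10 alternatives, from -1.05 (mitochondrial limit 10%) to 0.25 (at least 6 markers), and changed sign among them. That interval rests on 35 UMIs in control and 18 in cKO and is wide enough to hold all these values. Staying within it therefore does not show a stable ratio. No paired analysis was possible because each genotype has 1 library and no result comes from a test, and no replicate could be left out for the same reason. Depth limits genes with few UMIs, as 0 UMIs in the core allow up to 2.73 CPM in control and 3.28 in cKO.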
